A study of Mus musculus with 2 samples.

Results

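The genes described here encode 32 enzymes that make, recycle or interconvert purine and pyrimidine nucleotides. They were chosen by name, as a fixed set of symbols covering pyrimidine synthesis, CTP synthesis, thymidylate supply, pyrimidine salvage, purine synthesis, GMP synthesis, purine salvage, phosphoribosyl pyrophosphate (PRPP) synthesis and nucleotide kinases. All 32 were found, each in 1 row, among 55350 gene symbols. The data come from KPC2, a mouse pancreatic cancer cell line grown in DMEM with fetal bovine serum. RNA of gemcitabine-resistant KPC2 cells, held under long-term gemcitabine at 260 ng/mL, was sequenced as 1 library. The other library came from KPC2 wild type cells, which had no drug. No source used here says whether the resistant cells descend from 1 clone. With 1 library per group there was no test between conditions and no error across replicates, and drug in the medium cannot be told apart from a lasting state of the resistant cells.

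Cells obtain nucleotides along 2 routes. De novo synthesis builds the pyrimidine ring from glutamine, bicarbonate and aspartate and then joins it to PRPP, whereas the purine ring is assembled step by step on PRPP itself. Salvage enzymes return free bases and nucleosides to nucleotides at much lower cost. Dividing cells need both routes for RNA and DNA. Gemcitabine is a deoxycytidine analogue: once phosphorylated it competes with dCTP for entry into DNA, and its diphosphate inhibits ribonucleotide reductase. Some of the enzymes described here feed the deoxynucleotide pools with which the drug competes.

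Levels are in FPKM (fragments normalised to transcript length and library size), a scale per length on which genes can be compared. The difference is the log2 ratio, log2((resistant FPKM + 1)/(wild type FPKM + 1)), so a positive value means higher in resistant cells. A gene counts as measured if either library has it at 1 FPKM or above. Of the 32 genes, 30 were measured, and Tymp and Nme4 were below that level in both libraries. Counting intervals at 95% cover sampling of fragments alone and were taken from fragment numbers recovered from the steps of low values. The measured members rested on at least 107 fragments in the resistant and 96 in the wild type library.

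The set as a whole was well expressed and differed little between the libraries. The median level of the 30 measured members was 40.8 FPKM in resistant cells and 31.4 FPKM in wild type cells, against medians of 10.2 FPKM and 10.5 FPKM over all 12193 measured genes. The log2 ratios of the members ranged from -0.96 to 1.20, with a median of 0.28, and the median over all measured genes was 0.02. Of the 30 members, 20 lay above 0 (66.7%, against 50.8% of all measured genes) and 10 below. With both libraries rescaled to an equal total, 16 lay above 0 and 14 below. At least 2-fold higher in resistant cells were 2 members (6.67%), Upp1 and Prps1, against 7.9% of all measured genes, and Prps1 was not once its near-identical copy Prps1l3 was added. None was at least 2-fold lower, against 8.37% of all measured genes. At a line of 1.5-fold, 8 members (26.7%) were higher against 18.4% of all genes, and 2 members (6.67%) were lower against 19.7%. The 8 were Upp1, Prps1, Ctps, Uck2, Guk1, Aprt, Atic and Dhodh, and the 2 were Uck1 and Dut.

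**Figure D1:**
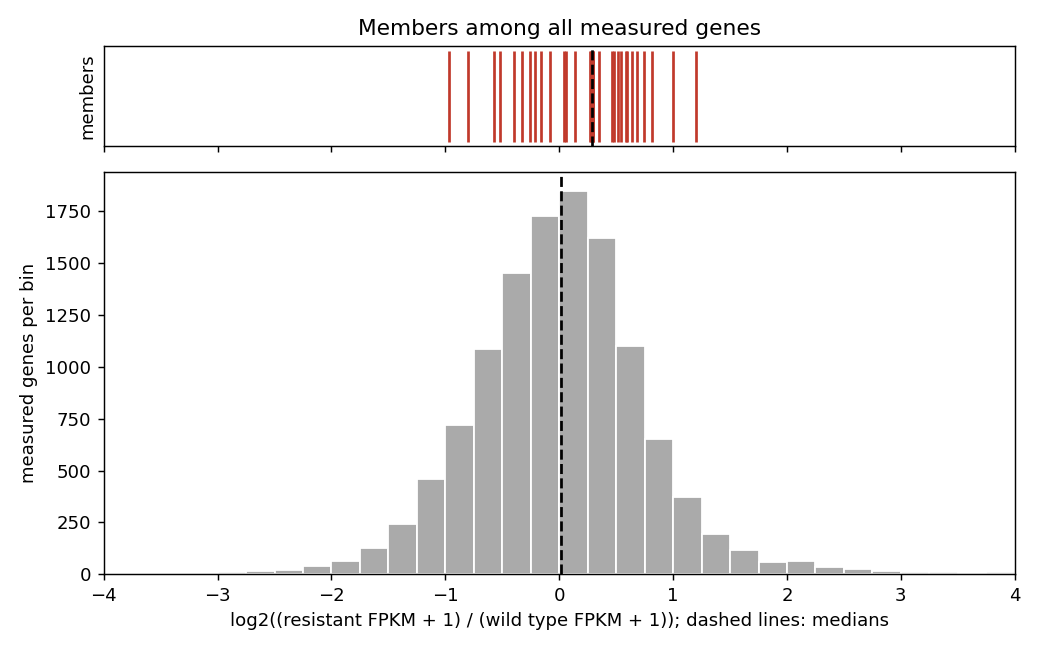
Upper panel: 1 line for each of the 30 measured members at its log2 ratio. Lower panel: number of measured genes in bins of 0.25 on the same axis, resistant over wild type, with 63 genes beyond 4 in size not drawn. Dashed lines mark the medians, 0.28 for the members and 0.02 for all genes.

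On the deposited scale the counting interval of the FPKM ratio excluded 1 for 26 of the 30 measured members. The exceptions were Ctps2, Dctpp1, Prps2 and Nme1. Such an interval compares these libraries and not the conditions. The share of all measured genes whose interval excludes 1 was not counted, so the count does not set the members apart. It also depends on scaling: at an equal total of both libraries, 26 log2 ratios moved by more than their log2 interval reaches to 1 side.

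The counts past a fold line depend on how the 2 libraries are set to a common scale. Over all rows the deposited values sum to 1197280 in the resistant and 998508 in the wild type library. The rescaling to an equal total used sums without the 13 rows left out, a factor of 0.824 on the resistant library relative to wild type. When both libraries were rescaled to an equal total, the median of all genes shifted by -0.26. Of all measured genes 5.09% were then at least 2-fold higher and 13.3% at least 2-fold lower, and of the members 0 were higher and 2 lower. The median of the members was then 0.013. Measured from the median of all genes, it lay 0.26 higher under that scaling and 0.27 higher on the deposited scale. This gap could hardly differ, since 1 factor on a library moves every log2 ratio by nearly the same amount. Ctps2, Paics, Prps2 and Nme1 fall below 0 at an equal total.

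**Figure D2:**
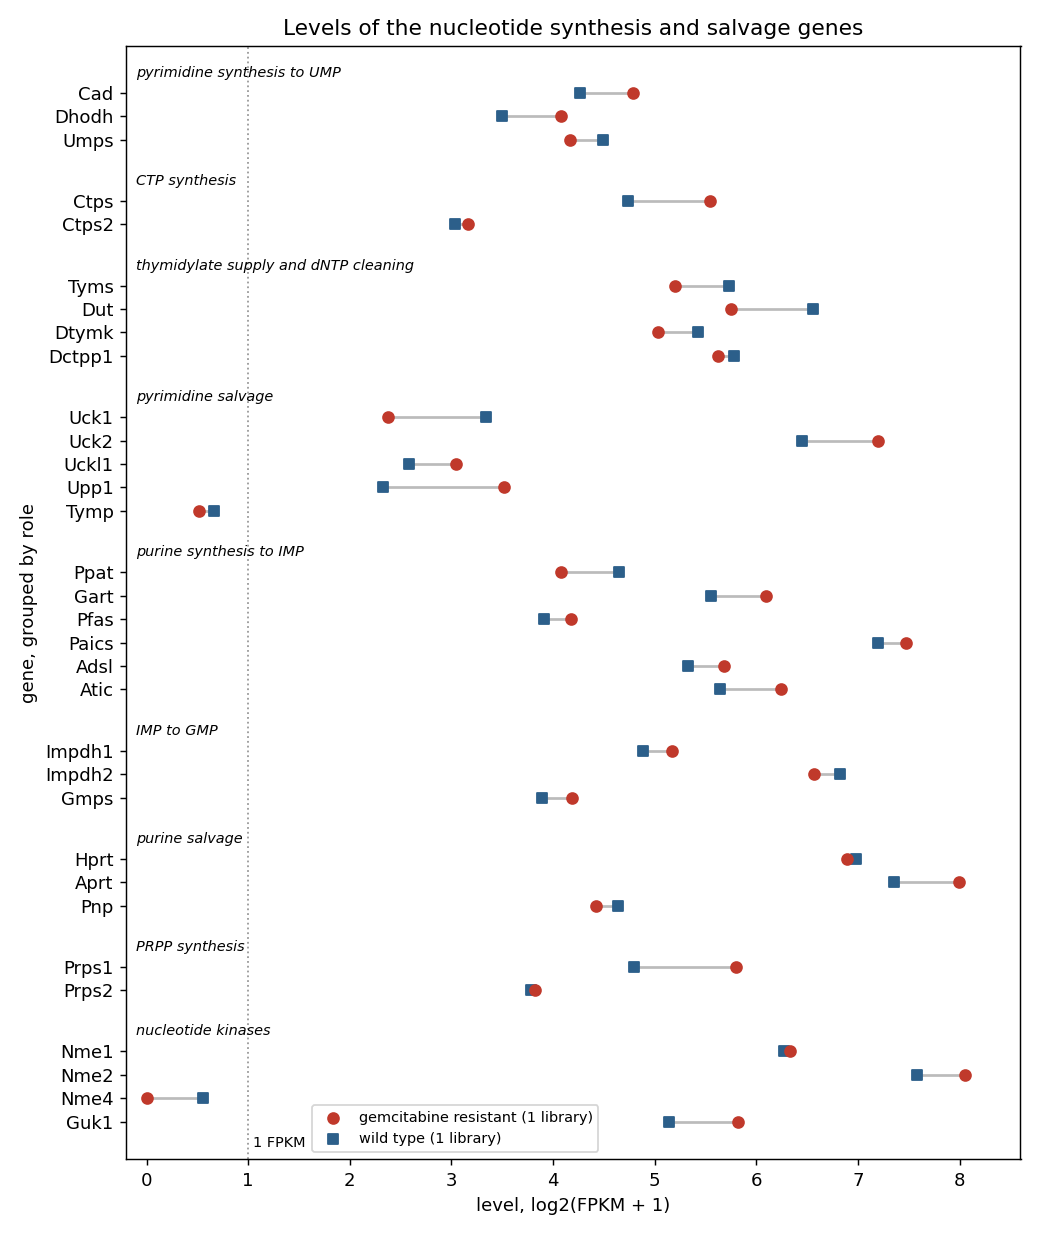
Level of every member as log2(FPKM + 1), grouped by role, with circles for the resistant and squares for the wild type library (1 library each). Tymp and Nme4 alone lie left of the dotted line at 1 FPKM, and Nme2 and Aprt reach the highest levels.

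Pyrimidine synthesis starts with Cad, a single protein that carries the carbamoyl phosphate synthetase, aspartate transcarbamylase and dihydroorotase activities. Cad stood at 26.6 FPKM in resistant cells and 18.3 FPKM in wild type cells (log2 ratio 0.52). Dhodh, the mitochondrial enzyme that oxidises dihydroorotate to orotate, stood at 15.9 FPKM in resistant cells and 10.3 FPKM in wild type cells. Its FPKM ratio of 1.55 had a counting interval of 1.34 to 1.79, and its log2 ratio of 0.59 lay just past the 1.5-fold line. Umps, which turns orotate into UMP and so completes the route, went the other way, at 16.9 FPKM in resistant cells and 21.5 FPKM in wild type cells (log2 ratio -0.33). The genes of the earlier steps were thus higher and that of the last steps lower in resistant cells.

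CTP is made from UTP by CTP synthases. Ctps, CTP synthase 1 (chr4:120539868-120570276, minus strand, in GRCm38), stood at 45.7 FPKM in resistant cells and 25.6 FPKM in wild type cells, an FPKM ratio of 1.78 with a counting interval of 1.68 to 1.90. Its log2 ratio of 0.81 was higher than that of 88.2% of all measured genes. The second synthase, Ctps2, was lower in level and close between the libraries, at 7.97 FPKM in resistant cells and 7.17 FPKM in wild type cells (log2 ratio 0.14). Its counting interval for the FPKM ratio, 0.834 to 1.47, included 1. Ctps made up 85.2% of the summed FPKM of both synthases in resistant cells and 78.1% in wild type cells.

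The 4 members grouped here as enzymes that supply thymidylate or remove unwanted deoxynucleotides were all lower in resistant cells. Dut, which cleaves dUTP to dUMP and so keeps uracil out of DNA (chr2:125247190-125258608, plus strand), stood at 53.0 FPKM in resistant cells and 93.04 FPKM in wild type cells, an FPKM ratio of 0.569 with a counting interval of 0.528 to 0.614. Tyms, thymidylate synthase, which methylates dUMP to dTMP, stood at 35.8 FPKM in resistant cells and 52.0 FPKM in wild type cells (log2 ratio -0.52). Dtymk, which phosphorylates dTMP, stood at 31.7 FPKM in resistant cells and 42.0 FPKM in wild type cells (log2 ratio -0.40). The difference was smallest for Dctpp1, a pyrophosphatase that hydrolyses dCTP, at 48.4 FPKM in resistant cells and 54.02 FPKM in wild type cells. Its counting interval for the FPKM ratio, 0.80 to 1.003, reached 1. Dut, with a log2 ratio of -0.80, was the one of the 4 past the 1.5-fold line. All 4 stayed below 0 under each scaling tried.

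Pyrimidine salvage held the widest range of any role. Upp1, uridine phosphorylase, which cleaves uridine to uracil and ribose 1-phosphate (chr11:9118103-9136170, plus strand, in GRCm38), stood at 10.5 FPKM in resistant cells and 3.998 FPKM in wild type cells. Its log2 ratio of 1.20 was the highest of all members, and its FPKM ratio of 2.62 had a counting interval of 2.05 to 3.34. Uck2 and Uck1, the kinases that phosphorylate uridine and cytidine, differed in opposite directions. Uck2 (chr1:167222883-167285320, minus strand) stood at 146 FPKM in resistant cells and 86.6 FPKM in wild type cells (log2 ratio 0.75). Uck1 (chr2:32255002-32260159, minus strand) stood at 4.19 FPKM in resistant cells and 9.14 FPKM in wild type cells, the lowest log2 ratio of all members at -0.96. Its FPKM ratio, without the pseudocount, was 0.459 with a counting interval of 0.384 to 0.55. Uckl1, a related kinase-like protein, stood at 7.24 FPKM in resistant cells and 4.98 FPKM in wild type cells (log2 ratio 0.46). It shares 67 exon bases (1.447% of its own) on the same strand with Zfp512b, which stood at 0.75 FPKM in resistant cells and 5.22 FPKM in wild type cells, and its locus in the authors' deposited table is shared by 5 other rows. How fragments were divided between them was not tested. Tymp, thymidine phosphorylase, was near the floor at 0.43 FPKM in resistant cells and 0.58 FPKM in wild type cells. On 19 fragments in the resistant and 26 in the wild type library, its counting interval for the ratio, 0.395 to 1.42, was wide.

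**Figure D3:**
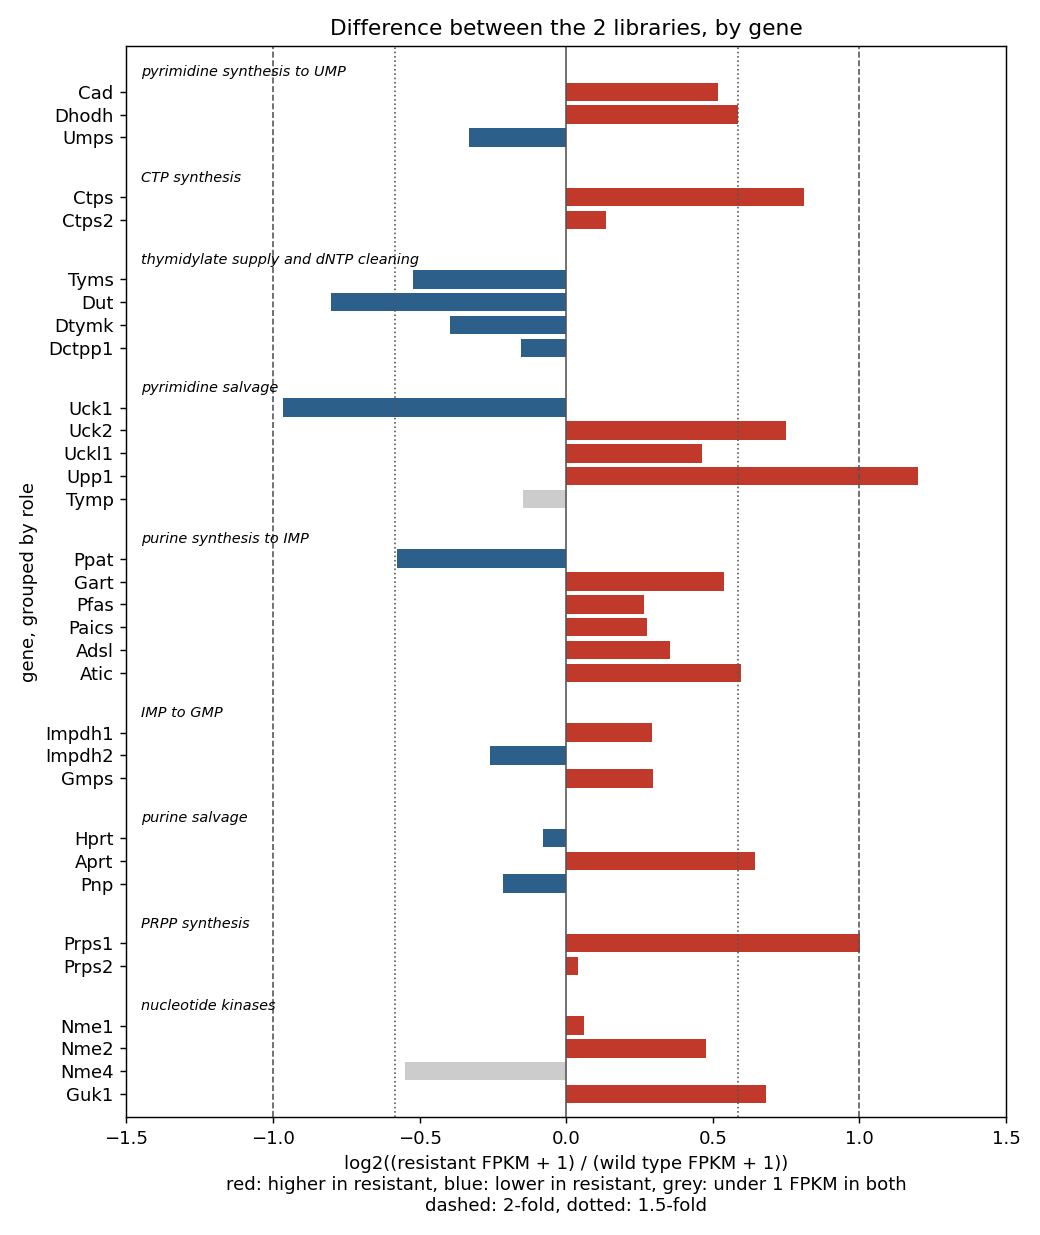
Log2 ratio of each member, resistant over wild type, grouped by role. Red bars are higher and blue bars lower in resistant cells, and grey bars are Tymp and Nme4, below 1 FPKM in both. Upp1 and Prps1 reach the dashed 2-fold line (Prps1 stands at 0.13 with its copy Prps1l3 added), Uck1 ends just short of it, and the 4 thymidylate supply genes all point to the left. Ctps2, Paics, Prps2 and Nme1 change side when both libraries are set to an equal total.

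Purine synthesis to IMP was higher in resistant cells for 5 of its 6 genes, with a median log2 ratio of 0.31, and the exception was Ppat, the gene of its first committed step. At an equal total of both libraries the median was 0.04, with 4 genes above 0 and 2 below, and Pfas, Paics and Adsl lay at 0.0041, -0.0026 and 0.08. Ppat, which transfers an amino group to PRPP, stood at 15.9 FPKM in resistant cells and 24.1 FPKM in wild type cells (log2 ratio -0.58, just short of the 1.5-fold line). The next genes went the other way. Gart, a trifunctional enzyme of several later steps, stood at 67.5 FPKM in resistant cells and 46.1 FPKM in wild type cells (log2 ratio 0.54). Pfas, which adds a nitrogen from glutamine at a later step, stood at 17.0 FPKM in resistant cells and 14.0 FPKM in wild type cells (log2 ratio 0.27). Paics, a bifunctional carboxylase and synthetase, was by far the most abundant of the route, at 176 FPKM in resistant cells and 146 FPKM in wild type cells (log2 ratio 0.28, below 0 at an equal total). Adsl, adenylosuccinate lyase, stood at 50.3 FPKM in resistant cells and 39.2 FPKM in wild type cells (log2 ratio 0.35). Atic, which closes the ring to give IMP, differed most among the 5, at 74.7 FPKM in resistant cells and 49.1 FPKM in wild type cells, an FPKM ratio of 1.52 with a counting interval of 1.46 to 1.59.

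Ppat and Paics are neighbours read in opposite directions on chromosome 5, Ppat at chr5:76913276-76951578 on the minus strand and Paics at chr5:76951307-76967509 on the plus strand in GRCm38. Their annotated RefSeq starts lie 276 bases apart, with the 5' ends overlapping, yet on the deposited scale the libraries differed in opposite directions. At an equal total of both libraries the log2 ratios of Paics and Ppat were -0.0026 and -0.84, both below 0. The FPKM of Paics were 11.1 times those of Ppat in resistant cells and 6.03 times in wild type cells. The annotated exons share 272 bases, 6.15% of those of Ppat. No source used here gives the strandedness of the library, so fragments from the shared stretch cannot be assigned. The promoter windows of both genes are shown because this pair shares a locus and differed in sign on the deposited scale. Each runs from 250 bases before to 50 bases after the start, 5' to 3' on the strand of its gene, from RefSeq on GRCm38.p6, the first at chr5:76951529-76951828 (minus strand) and the second at chr5:76951052-76951351 (plus strand). Capitals mark matches to the motifs searched.
Ppat: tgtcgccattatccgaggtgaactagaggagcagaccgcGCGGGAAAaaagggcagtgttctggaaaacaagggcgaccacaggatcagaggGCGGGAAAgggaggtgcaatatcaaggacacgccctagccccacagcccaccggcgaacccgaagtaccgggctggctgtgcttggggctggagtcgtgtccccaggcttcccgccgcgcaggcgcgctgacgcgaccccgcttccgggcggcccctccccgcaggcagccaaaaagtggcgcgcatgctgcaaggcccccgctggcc
Paics: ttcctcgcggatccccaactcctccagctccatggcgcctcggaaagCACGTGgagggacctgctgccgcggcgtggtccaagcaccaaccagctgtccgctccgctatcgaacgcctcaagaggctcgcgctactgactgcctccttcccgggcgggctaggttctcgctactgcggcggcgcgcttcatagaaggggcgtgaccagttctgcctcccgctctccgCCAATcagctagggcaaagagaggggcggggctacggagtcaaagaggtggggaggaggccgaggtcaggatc
In the Ppat window the capitals are 2 E2F-type matches (GCGGGAAA, the reverse complement of TTTCCCGC). In the Paics window they are an E-box (CACGTG), at -203 to -198 from the start, and a CCAAT box. A match is a stretch of letters and does not show that a factor bound there.

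IMP is turned into GMP by IMP dehydrogenase and GMP synthetase. Impdh1 stood at 35.1 FPKM in resistant cells and 28.5 FPKM in wild type cells (log2 ratio 0.29). Impdh2, the more abundant dehydrogenase, stood at 93.8 FPKM in resistant cells and 112.5 FPKM in wild type cells (log2 ratio -0.26). Gmps, which aminates XMP to GMP, stood at 17.2 FPKM in resistant cells and 13.9 FPKM in wild type cells (log2 ratio 0.30). None of the 3 reached the 1.5-fold line.

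Purine salvage held genes on both sides of 0, with a median log2 ratio of -0.08 over its 3 genes, or -0.36 at an equal total. Hprt, which salvages hypoxanthine and guanine, stood at 118 FPKM in resistant cells and 125 FPKM in wild type cells, an FPKM ratio of 0.946 with a counting interval of 0.901 to 0.993. Pnp, purine nucleoside phosphorylase, stood at 20.5 FPKM in resistant cells and 23.9 FPKM in wild type cells (log2 ratio -0.22). Aprt, which salvages adenine, was higher, at 254 FPKM in resistant cells and 162 FPKM in wild type cells (log2 ratio 0.64). The authors' locus for Aprt runs over 4.44 Mb of chromosome 8 and is shared by 209 other rows, whereas GENCODE places the gene at chr8:122574635-122576890. How fragments were divided within that locus was not tested.

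PRPP, the shared substrate of purine synthesis and of base salvage, is made by PRPP synthetases. Prps1 (chrX:140456613-140476140, plus strand) stood at 54.7 FPKM in resistant cells and 26.8 FPKM in wild type cells. Its log2 ratio of 1.002 put it on the 2-fold line itself, and the counting interval of its FPKM ratio of 2.04 ran from 1.90 to 2.19. Prps2 stood at 13.2 FPKM in resistant cells and 12.8 FPKM in wild type cells (log2 ratio 0.04, below 0 when rescaled to the upper quartile or to an equal total). Prps1l3, a copy of Prps1 annotated as protein coding at chr12:57230412-57239882 whose transcript matches 99.9% of the Prps1 coding sequence at 97.0% identity, had 11.5 FPKM in resistant cells and 33.8 FPKM in wild type cells. Prps1 and Prps1l3 together stood at 66.2 FPKM in resistant cells and 60.6 FPKM in wild type cells, a ratio of 1.09, or 1.15 when each was weighted by its longest annotated transcript. The 2-fold difference of Prps1 is therefore not present in the sum, and how fragments were split between the copies was not tested.

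The Prps1 promoter window is shown because it was the one member window with a match to the ATF4 composite element, a stretch bound by the stress-response factor ATF4. It lies at chrX:140456353-140456652 on the plus strand, 5' to 3', from RefSeq on GRCm38.p6, with capitals marking that element (TGATGTAA, at -170 to -163 from the start) and a CCAAT box.
Prps1: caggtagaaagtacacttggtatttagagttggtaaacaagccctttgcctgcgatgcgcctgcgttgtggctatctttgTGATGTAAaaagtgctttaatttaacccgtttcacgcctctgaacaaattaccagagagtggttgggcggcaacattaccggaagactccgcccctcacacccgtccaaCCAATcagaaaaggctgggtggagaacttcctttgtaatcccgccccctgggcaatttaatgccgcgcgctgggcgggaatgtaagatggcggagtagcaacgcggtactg
That element was in 2.44% of the member windows, against 3.97% of all windows, so a single match is no more than the share over all genes gives.

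Nucleotide kinases carry monophosphates and diphosphates to triphosphates. Guk1, guanylate kinase, stood at 55.5 FPKM in resistant cells and 34.3 FPKM in wild type cells (log2 ratio 0.68). Nme2, a nucleoside diphosphate kinase with the highest level of all members, stood at 265 FPKM in resistant cells and 190.01 FPKM in wild type cells (log2 ratio 0.48). Its neighbour and paralog Nme1 stood at 79.4 FPKM in resistant cells and 76.1 FPKM in wild type cells (log2 ratio 0.06, below 0 when rescaled to the upper quartile or to an equal total). Nme4, the mitochondrial nucleoside diphosphate kinase, was listed at 0 in resistant cells and stood at 0.46 FPKM in wild type cells, which is about 5 fragments. No fold is given for it.

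In 4 pairs of enzymes that do the same chemistry, the share of each gene differed between the libraries. The Uck pair differed most: Uck2 FPKM were 34.9 times those of Uck1 in resistant cells and 9.48 times in wild type cells, a 3.68-fold difference. Prps1 was 4.15 times Prps2 in resistant cells and 2.10 times in wild type cells, before the copy Prps1l3 is counted. Ctps was 5.73 times Ctps2 in resistant cells and 3.57 times in wild type cells. In these 3 pairs the more abundant gene was further ahead in resistant cells, for Prps1 without its copy. With Prps1l3 added, Prps1 stood at 66.2 FPKM in resistant cells and 60.6 FPKM in wild type cells. Prps2 stood at 13.2 FPKM and 12.8 FPKM. Impdh2 ran against the 3 pairs, at 2.67 times Impdh1 in resistant cells and 3.95 times in wild type cells. Beside these 4 pairs, Nme2 was 3.34 times Nme1 in resistant cells and 2.50 times in wild type cells. Both Nme genes share exons with Gm20390. A ratio within a library does not depend on scaling between libraries. The coding sequences of the pairs were 67.4% (Uck1 with Uck2), 80.0% (Prps1 with Prps2), 69.9% (Ctps with Ctps2) and 70.7% (Impdh1 with Impdh2) identical.

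**Figure D4:**
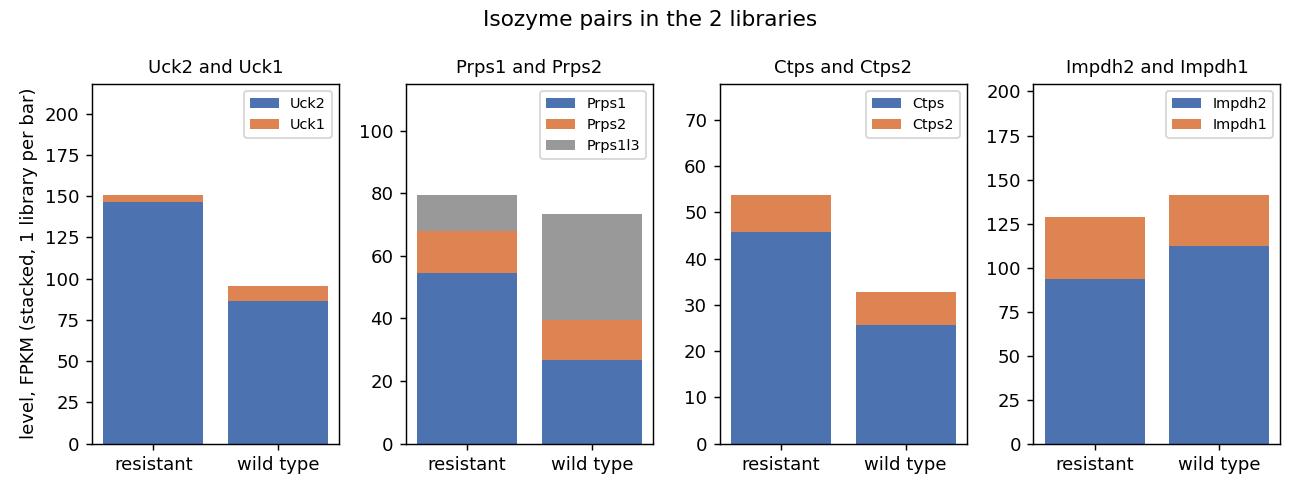
Stacked FPKM of each enzyme pair, resistant left and wild type right, 1 library per bar, with axes that start at 0. For the PRPP synthetases the grey part is the copy Prps1l3, with which the total is close between the libraries (Prps1 with Prps1l3 66.2 FPKM in resistant and 60.6 FPKM in wild type).

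Of the 32 members, 10 have another gene whose transcript matches at least 50% of their coding sequence at 90% identity or more, so their fragments could be shared. For Impdh2, the pseudogene Impdh2-ps (99.7% identical) had 38.9 FPKM in resistant cells and 42.2 FPKM in wild type cells, and Impdh2 with it stood at 132.7 FPKM and 154.8 FPKM in resistant and wild type cells (ratio 0.857). Nme1 and Nme2 share exons with Gm20390, an entry that spans both, at 80.2 FPKM in resistant cells and 66.1 FPKM in wild type cells. The 3 entries summed to 424 FPKM in resistant cells and 332 FPKM in wild type cells, a ratio of 1.28. Nme2 has 4 copies in all, Gm20390 among them. Another is the pseudogene Gm7730 (97.8% identical), at 43.7 FPKM in resistant cells and 39.2 FPKM in wild type cells. With its copies the log2 ratio of Nme2 was 0.40. Pnp shares exons with Gm49342, and the sum was 39.9 FPKM in resistant cells and 47.1 FPKM in wild type cells (ratio 0.847). Uck1 has a 99.3% identical pseudogene, Gm4482, at 1.11 FPKM in resistant cells and 1.80 FPKM in wild type cells, and with its copies the log2 ratio of Uck1 was -0.92. For Tymp, 42.0% of the exon bases are also exon of Sco2 and 26.3% of Ncaph2. With all copies added to their members, the number at least 2-fold higher was 1, since Prps1 no longer counted, and no measured member changed sign.

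Among the 30 members with a RefSeq promoter window (41 windows), the E-box CACGTG, the site of MYC and MAX, was in 7 windows (17.1%), against 7.15% of 32851 windows of all genes, non-coding ones included. E2F forms (TTTCCCGC, TTTGGCGC, TTTCGCGC or TTTGCCGC) were in 2 windows (4.88%), against 2.26% of all. The ATF4 composite element TGATGNAA was in 1 window (2.44%), against 3.97% of all, and CCAAT in 12 windows (29.3%), against 37.4% of all. Both strands were searched, and no match overlapped another. The 7 E-boxes belong to 6 genes, and 3 of these had a log2 ratio above 0 and 3 below: Atic 0.60, Paics 0.28 and Nme1 0.06, and Impdh2 -0.26, Dtymk -0.40 and Tyms -0.52. The E-boxes are shown with 12 bases on each side, 5' to 3' on the strand of the gene, with the motif in capitals. In order their GRCm38.p6 positions are chr1:71557137-71557166 (plus), chr1:93802065-93802094 (minus), chr9:108560314-108560343 (plus), chr11:93968037-93968066 (minus), chr11:93968273-93968302 (minus), chr5:76951087-76951116 (plus) and chr5:30073669-30073698 (minus).
Atic: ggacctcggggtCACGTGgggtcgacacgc
Dtymk: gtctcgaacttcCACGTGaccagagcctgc
Impdh2: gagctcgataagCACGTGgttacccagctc
Nme1, start nearer to Nme2: agcttgatacgcCACGTGggctcgcctttg
Nme1, start farther from Nme2: gctgcggggaacCACGTGaggccggggagc
Paics: cgcctcggaaagCACGTGgagggacctgct
Tyms: aaccacttctgtCACGTGggggcggggtct

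**Figure D5:**
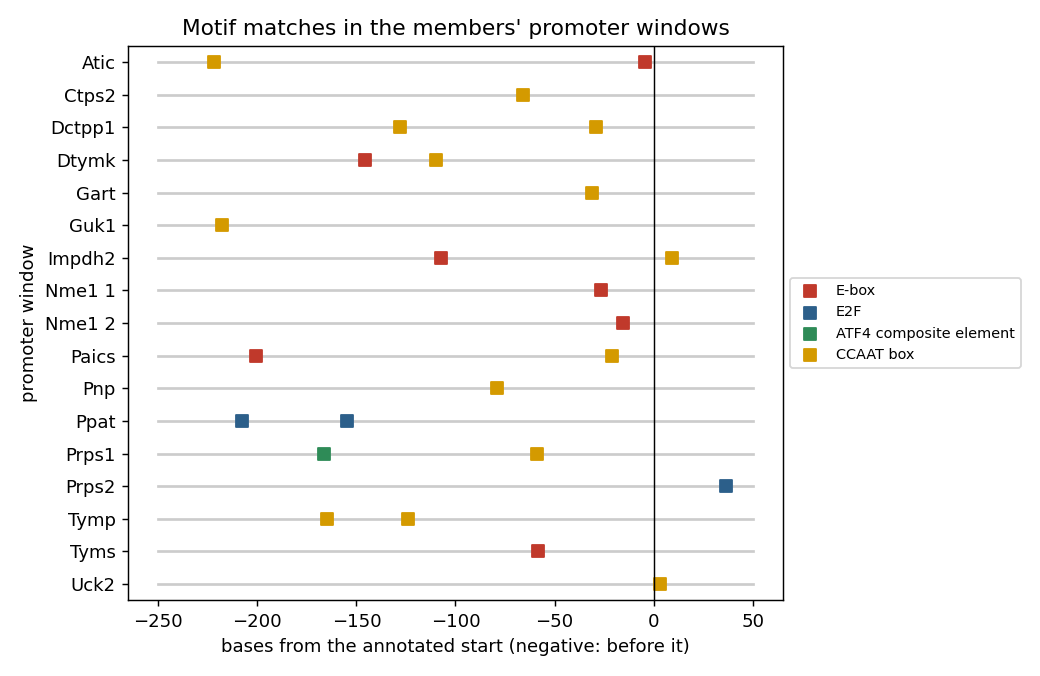
Motif matches in the promoter windows of members that hold any, drawn as squares at their distance in bases from the annotated start (vertical line), with 1 row per window (Nme1 has 2). E-boxes lie in the windows of 6 genes, the E2F forms in Ppat and Prps2, and the ATF4 composite element in Prps1.

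Of 9 known regulators of these genes or enzymes, 1 (11.1%) was at least 2-fold higher in resistant cells, against 7.9% of all measured genes, and 4 (44.4%) were at least 2-fold lower, against 8.37%. At an equal total the counts were 0 and 4. Atf4 stood at 392.4 FPKM in resistant cells and 164 FPKM in wild type cells (log2 ratio 1.25). Myc stood at 94.2 FPKM in resistant cells and 69.7 FPKM in wild type cells (log2 ratio 0.43), and its partner Max at 15.1 FPKM in resistant cells and 32.8 FPKM in wild type cells (log2 ratio -1.07). Mycn, at 0.62 FPKM in resistant cells and 2.29 FPKM in wild type cells, was 1 of the 4 at least 2-fold lower. It passed the level filter through the wild type library alone, where it was higher. The E2F genes, which drive S-phase genes, were lower: E2f1 stood at 6.24 FPKM in resistant cells and 8.71 FPKM in wild type cells, E2f2 at 1.25 FPKM in resistant cells and 5.23 FPKM in wild type cells, and E2f3 at 2.42 FPKM in resistant cells and 6.62 FPKM in wild type cells. Mtor, the growth kinase, stood at 9.19 FPKM in resistant cells and 5.83 FPKM in wild type cells, and its target Rps6kb1 at 14.8 FPKM in resistant cells and 15.8 FPKM in wild type cells.

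Beyond the members, 80 genes of nucleotide metabolism and its regulation were listed in 8 lists, the regulators included. Of these 63 were measured, and their median log2 ratio was -0.09. At least 2-fold higher were 9 (14.3%), against 7.9% of all measured genes, and at least 2-fold lower were 5 (7.94%), a share close to the 8.37% of all genes. At an equal total these counts were 5 and 8. Of the 63, 5 were measured through 1 library alone: Ampd3, Gda, Aldh1l1, Aldh1l2 and Mycn. Folate one-carbon metabolism donates carbons to the purine ring and to thymidylate, but a gene on its list need not itself supply them. Of the 15 genes listed, 4 (26.7%) were at least 2-fold higher, against 7.9% of all genes. None was at least 2-fold lower, although the median of the list was -0.30. At an equal total 2 were higher and 1 lower. Aldh1l1 and Aldh1l2, both among the 4, were under 1 FPKM in wild type cells and passed the level filter through the resistant library alone. Mthfd2 (165 FPKM in resistant and 44.9 FPKM in wild type cells) and Shmt2 (118 FPKM in resistant and 51.3 FPKM in wild type cells), both mitochondrial, were among the 4, and so was Aldh1l2 (3.97 FPKM in resistant and 0.39 FPKM in wild type cells). Of 9 genes for ribose 5-phosphate supply and PRPP synthetase partners, 1 (11.1%) was at least 2-fold higher, against 7.9% of all measured genes. It was the epimerase gene Rpe, at 32.8 FPKM in resistant cells and 15.6 FPKM in wild type cells. When rescaled to the upper quartile or to an equal total, 0 of the 9 were 2-fold higher. Of 12 further kinases measured, 1 (8.33%) was at least 2-fold lower, against 8.37% of all measured genes. This was Nme3, at 4.05 FPKM in resistant cells and 11.0 FPKM in wild type cells. None of 5 adenylate branch genes and none of 7 deaminase and pool-cleaning genes passed 2-fold on the deposited scale, where 7.9% of all genes were higher and 8.37% lower. At an equal total 1 adenylate branch gene was 2-fold lower. Gda, guanine deaminase, was the 1 of 3 measured breakdown genes (33.3%) at least 2-fold higher, against 7.9% of all genes. It stood at 2.74 FPKM in resistant cells and 0.43 FPKM in wild type cells. The ribonucleotide reductase genes, which turn ribonucleotides into deoxyribonucleotides, stood at 2501 FPKM in resistant and 71.5 FPKM in wild type cells for Rrm1, 166 FPKM and 244 FPKM in resistant and wild type cells for Rrm2, and 8.91 FPKM and 2.92 FPKM in resistant and wild type cells for Rrm2b.

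Since nucleotide synthesis follows cell division, 15 proliferation genes were read beside it. None was 2-fold apart on the deposited scale, against shares over all genes of 7.9% higher and 8.37% lower. At an equal total 2 were 2-fold lower (13.3%), the same share as over all genes (13.3%). At the 1.5-fold line 2 of the 15 were lower and none higher, against shares over all genes of 19.7% and 18.4%. The median log2 ratio of the 15 was -0.06 (0.02 over all genes). They summed to 1195 FPKM in resistant cells and 1286 FPKM in wild type cells. Fewer dividing cells and less RNA per cell cannot be told apart in bulk RNA. Of 7 markers of pancreatic ductal epithelium 6 were measured, with a sum of 5523 FPKM in resistant cells and 3853 FPKM in wild type cells that was mostly Krt8, Krt18 and Krt19 (markers named here were picked after their values were seen). Past 2-fold, Krt7 was higher, at 32.6 FPKM in resistant cells and 7.56 FPKM in wild type cells, and Sox9 lower, at 1.88 FPKM in resistant cells and 8.19 FPKM in wild type cells. Cdh1 stood at 164.1 FPKM in resistant cells and 206 FPKM in wild type cells, and Epcam was at 0.10 FPKM in resistant cells and 0.21 FPKM in wild type cells. Summed markers of other cell types in resistant and wild type cells came to 2.07 FPKM and 4.51 FPKM for 8 acinar genes (5 listed at 0 in both), 0.24 FPKM and 0.34 FPKM for 7 fibroblast genes, 7.24 FPKM and 1.59 FPKM for 6 leukocyte genes (2 measured) and 10.4 FPKM and 7.49 FPKM for 5 endothelial genes (1 measured), and all 5 islet genes were listed at 0. Their part in the differences was not tested.

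The authors ran a test of their own on these libraries. Of the 32 members, 0 were among the genes called in the authors' deposited table. Over all 55468 rows the authors called 56 genes, so few that 0 of 32 does not set the members apart from other genes. At an unadjusted p under 0.05 the authors' deposited table has 1 member, Nme4 (p = 0.0457), and the q-value of every member there is 0.998. Nme4 rests on 0 fragments in the resistant and 5 in the wild type library. The share of all genes with an unadjusted p that low was not counted.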

How the data were processed

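RNA-seq values of 1 gemcitabine-resistant and 1 wild type library of KPC2 cells were taken from a table of 55468 Ensembl genes. No unit stands in the header. The level columns that the authors deposited were treated as FPKM, since low values of single-transcript genes step with length: 93.8% in the resistant and 93.0% in the wild type library came within 0.1 of a whole fragment once 160 bases were taken off the length, with 1 fragment worth 0.0431 and 0.0417 FPKM at 1 kb. The authors deposited p-values and q-values per gene, per the file headers. HISAT2, StringTie and GRCm38 are listed, with no role, in the submitters' processing notes. Rows of 1 symbol were summed, and 13 rows marked as failed or too deep were left out.

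Fragment numbers for members used the shortest coding transcript of GENCODE M21 (GRCm38), which widens the intervals (exact Poisson for levels, Clopper-Pearson for ratios). They cover counting error only. Copies were sought with BLAST 2.17.0+, coding sequences were aligned with Biopython 1.88, and motifs were read in RefSeq promoter windows. Coding sequences came from GENCODE transcripts, as protein sequences were not used here. The steps were tested on simulated data.

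All members are named, as are up to 3 genes per direction past 2-fold in each other pathway list, all ribonucleotide reductase genes and all regulators. Members and lists were chosen with earlier results of these data known, and the search for copies was added after the values were seen. Other pseudocounts, level filters, scalings and a choice of rows were tried. The software was matplotlib 3.10.9, scipy 1.17.1, pandas 2.3.3 and numpy 2.4.6 under Python 3.11.15.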

Additional observations from a re-analysis of the deposited data

How the results depend on the processing

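The number of members at least 2-fold higher was 2 on the deposited scale, 0 at a pseudocount of 5, 1 with the resistant library rescaled so that the median over all genes was 0, 1 with it rescaled to the upper quartile, 0 with both libraries at an equal total, and 1 with near-identical copies added, a choice made after seeing the data. The number at least 2-fold lower was 0 on the deposited scale, 1 at a pseudocount of 0.1, 1 at the upper quartile and 2 at an equal total. At the 1.5-fold line, 8 members were higher and 2 lower on the deposited scale, 5 and 4 at the upper quartile, and 2 and 6 at an equal total. The median log2 ratio of the members was 0.28 on the deposited scale and 0.013 at an equal total, where the median of all genes was -0.24. Under the other settings these counts stayed within 1.5 times their values and the median moved by less than 0.1. Of 270 values of single members under the 9 alternatives, 231 moved by no more than their log2 counting interval reaches to 1 side. Of the rest, 38 moved lower and 1 moved higher. Only Upp1 and Prps1 were past 2-fold, and neither changed sign. Among the other members, Prps2 and Nme1 changed sign at the upper quartile, and Ctps2, Paics, Prps2 and Nme1 at an equal total. The 231 include values that could not move. Level filters and the choice of rows leave the ratio of a single member as it is, since each member has 1 row. Adding copies cannot move a member without a copy. Prps1 had a log2 ratio of 1.002 on the deposited scale and 0.13 with its copy added. The upper quartile scaling left 9 single members moved and the equal total 26. No paired analysis was possible because each group has 1 library. Fragment numbers limit Tymp and Nme4, which were below 1 FPKM.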
